A study of Rattus norvegicus with 6 samples.

Results

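Cadherins, protocadherins and catenins were examined in cultured neuronal progenitors, cells that divide and give rise to neurons and glia, on 63 of the 20826 probe sets that carried a single gene symbol. The members were all probe sets whose symbol is Cdh or Pcdh with a number, also after the cluster letters a, b or g, together with those of the alpha-, beta- and delta-catenins, Jup, Celsr1-3, Fat1-4 and Dchs1. They covered 46 of 14217 genes. Rule names without a probe set of a single symbol, among them Cdh4, Cdh5, Celsr1 and Ctnna3, were not analysed here, and neither was any gamma-cluster protocadherin by name.

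The cells came from the cerebral cortex of rat embryos at E15.5 and grew on fibronectin with 20 ng/ml basic fibroblast growth factor (bFGF), which keeps such cells dividing. The corticosterone group was kept for 48 h in 1 µM corticosterone, the principal adrenal glucocorticoid of the rat, and the vehicle group received its solvent dimethyl sulfoxide (DMSO) over the same 48 h. Total RNA of 3 samples per group was hybridised to 1 single-colour Affymetrix array each. The series describes the samples as couples of 1 corticosterone and 1 vehicle sample, numbered 1 to 3. No genotype, strain, sex or pooling is given in the sources used here.

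Cadherins are membrane proteins that bind the same kind of protein on a neighbouring cell in the presence of calcium. Inside the cell, classical cadherins hold beta-catenin or plakoglobin (Jup) and p120-type catenins, and alpha-catenin links that complex to actin. In the embryonic cortex, radial glial progenitors are tied to each other by N-cadherin (Cdh2) junctions at the ventricle. Protocadherins have shorter or different cytoplasmic parts and act in cell sorting and in the recognition of neurites, and Fat, Dachsous and Celsr proteins are very large cadherins known for tissue polarity.

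The arrays gave MAS5 signals on a linear scale, with a median over all probe sets of 124, 134 and 125 on the corticosterone arrays of couples 1, 2 and 3, and 108, 122 and 119 on the vehicle arrays. The background signal, taken from bacterial control probe sets, was 22.8. Progenitor markers were well measured: 15 of 17 lay above background on all 6 arrays, among them Nes, Sox2, Pax6 and Vim, while Eomes, of intermediate progenitors, did not rise above it on any. Both arrays of couple 2 stood apart in some transcripts of fibroblast and meningeal cells, a pattern singled out after the values were seen. Lum, a matrix proteoglycan of such cells, had a signal of 143 on the corticosterone array and 136 on the vehicle array of couple 2, and between 1.66 and 2.66 on the other corticosterone arrays and 0.483 and 0.817 on the other vehicle arrays. Col1a1, Col1a2, Col3a1 and Tbx18 were also highest in couple 2 under both treatments. Other markers of the same list differed. Fbln2 and Igfbp2 were highest in couple 3 under both treatments, and the vehicle signal of Acta2 was lowest in couple 2. The part of fibroblast and meningeal cells in the results was not tested beyond leaving out couple 2. In RNA from whole cultures, more cells of a type and more RNA per cell cannot be told apart.

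Corticosterone changed 11 of the 31 member genes tested, 8 upwards and 3 downwards. Plakoglobin (Jup), T-cadherin (Cdh13) and Pcdh8 rose most, with log2 fold changes of 1.40, 1.34 and 1.18, followed by Cdh11 (0.94), Cdh22 (0.80), Celsr2 (0.61), Fat4 (0.55) and alpha-E-catenin (Ctnna1, 0.46). Jup was tested only through its corticosterone arrays, since its mean vehicle signal lay under the filter on low signals. Pcdh17 (−0.73), Pcdh19 (−0.56) and alpha-N-catenin (Ctnna2, −0.40) fell. Beta-catenin (Ctnnb1) and N-cadherin, the core of the progenitor junction, did not pass.

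Here a gene changed where its limma adjusted p was under 0.05 on the log2(signal + 28.6) scale, with the couple in the model and adjustment over all 18625 probe sets tested. Where a gene had several probe sets, that with the highest mean log2 signal over the arrays stood for it. The changed genes made up 35.5% of the tested members, against 19.5% of all 9910 genes tested. Those that rose made up 25.8% of the members, against 11.7% of all genes. They include Jup, which was tested only through its corticosterone arrays. Those that fell made up 9.68% against 7.77%, which is near the share in all genes. Among probe sets 15 of 41 members passed (36.6%, against 15.9% of all), 10 upwards (9.4% of all) and 5 downwards (6.45% of all). The median log2 fold change was 0.19 over the tested members and −0.002 over all genes. The 3 corticosterone arrays all lay above the 3 vehicle arrays for 7 tested member genes (14.8% of all genes did so), and all below for 1, Cdh23 (11.4% of all genes).

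**Figure D1:**
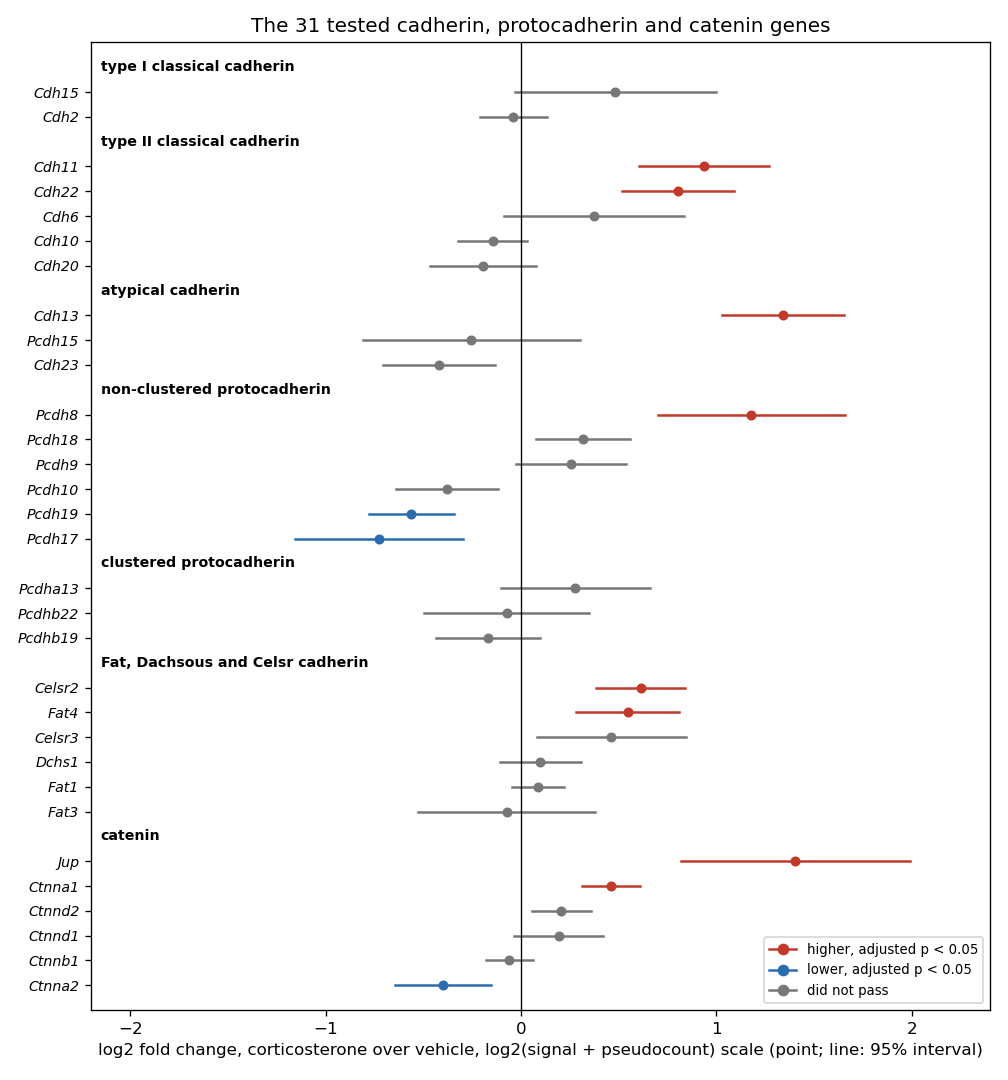
Log2 fold change, corticosterone over vehicle, of the 31 tested member genes with 95% intervals from limma, grouped by type of protein. Red marks the 8 genes that rose and blue the 3 that fell; the catenin and non-clustered protocadherin groups hold changes in both directions.

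The calls rested on the pairing of the arrays. Without the couple as a block, Cdh13 and Ctnna1 passed (limma adjusted p = 0.0083 and 0.046) and the other 9 did not (adjusted p from 0.065 to 0.59). Levels differed between couples as much as between treatments for several members: in 6 of the 11 changed genes the highest vehicle signal was over 1.5 times the lowest, as in 16 of the 31 tested.

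Cdh13 encodes T-cadherin, which has no cytoplasmic part and is held in the membrane by a lipid anchor. Its signal was 581, 616 and 467 on the corticosterone arrays of couples 1 to 3, against 219, 166 and 220 on the vehicle arrays. Every corticosterone array lay above every vehicle array, and the log2 fold change was 1.34 ± 0.14 (SE; limma adjusted p = 1.2e-04; n = 3 arrays per group here and throughout). All 3 Cdh13 probe sets passed in the same direction, with log2 fold changes of 1.34, 1.00 and 0.63. The smallest of these did not pass without couple 2 (adjusted p = 0.11) or without the couple as a block (0.10).

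Cdh11, the type II cadherin of mesenchymal and some neural cells, had signals of 470.1, 845 and 285 with corticosterone, against 221, 320 and 196 with vehicle. It was higher with corticosterone in each couple and highest in couple 2 under both treatments, and the groups overlapped. The log2 fold change was 0.94 ± 0.15 (SE; limma adjusted p = 0.0018), and 0.74 without couple 2 (adjusted p = 0.043). The other 2 Cdh11 probe sets lay below the filter on low signals and were not tested. Of 11 markers of meningeal cells, pericytes and fibroblasts tested 6 rose, 0 fell and 5 did not pass (median 0.48). Over all genes tested 11.7% rose. The 5 markers that did not pass were Col3a1 (0.35), Col1a1 (0.24), Anpep (0.12), Aldh1a2 (−0.11) and Cspg4 (−0.22), with limma adjusted p from 0.33 to 0.78. The largest changes in the list were those of Postn (2.16), Col6a1 (1.64), Fbln2 (1.58) and Acta2 (1.03). Postn read 338, 522 and 84.9 with corticosterone and 2.36, 214 and 5.41 with vehicle. Its vehicle arrays of couples 1 and 3 lay under background. Its linear mean vehicle signal of 73.8 was over the filter limit of 63.6 only because of couple 2. The filter used mean log2 signals, and on that scale the vehicle arrays of Postn averaged under the limit. Postn thus passed the filter only through its corticosterone arrays. Col6a1 also passed it only through its corticosterone arrays, with a mean signal of 155 there and 29.5 on the vehicle arrays. The summed signal of the 22 markers measured was 19858 to 22508 on the corticosterone arrays and 13256 to 15890.0 on the vehicle arrays. Igfbp2, which other cells also express, made up most of that sum. Col3a1 was highest on the arrays of couple 2, at 928 with corticosterone and 577 with vehicle, as Cdh11 was, while the pericyte channel subunit Abcc9 lay at or under background on all 6. The part of these cells in the rise of Cdh11 was not tested.

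Cdh22, a type II cadherin of brain, gave opposite signs on its probe sets. The probe set with the higher signal read 422, 565 and 631 with corticosterone and 224, 245 and 451 with vehicle. It rose in each couple although the groups overlapped, and its log2 fold change was 0.80 ± 0.13 (SE; limma adjusted p = 0.0020). The other read 47.8, 89.9 and 126 with corticosterone and 87.3, 118 and 111 with vehicle, and did not pass (−0.25, adjusted p = 0.44). The direction for Cdh22 therefore holds for 1 of its 2 probe sets.

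N-cadherin did not pass on either of its tested probe sets. The main one read 2314, 3963 and 3054 with corticosterone and 2788, 3706 and 2941 with vehicle (log2 fold change −0.04, 95% interval −0.21 to 0.13, limma adjusted p = 0.79). The other read 1733, 1894 and 1654 with corticosterone and 1471, 1851 and 1232 with vehicle (0.23, adjusted p = 0.094). Couple 1 lay below its vehicle array on the main probe set, and the other couples slightly above.

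Among the remaining classical cadherins, Cdh10, Cdh20, Cdh6 and Cdh15 were tested and did not pass. Their log2 fold changes were −0.15, −0.19, 0.37 and 0.48 (limma adjusted p from 0.19 to 0.34). Cdh15, M-cadherin of muscle, read 144, 81.3 and 92.6 with corticosterone and 48.2, 74.5 and 77.5 with vehicle. Its groups did not overlap, yet couple 1 carried most of the difference. E-cadherin (Cdh1), the cadherin of epithelia, lay at or under background on all 6 arrays on the probe set that stands for it, as did Cdh12 and Fat2. Cdh3, Cdh7 and Cdh8 also lay below the filter and were not tested.

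Cdh23 and Pcdh15, which together form the tip links of sensory hair cells, did not pass. Cdh23 read 175, 200.1 and 190.3 with corticosterone and 266, 283 and 238 with vehicle. All 3 corticosterone arrays lay below all 3 vehicle arrays, and the log2 fold change of −0.42 (95% interval −0.71 to −0.13) missed the threshold narrowly (limma adjusted p = 0.051). Pcdh15 read 121, 87.3 and 70.1 with corticosterone and 137, 56.2 and 178 with vehicle (−0.25, adjusted p = 0.55). The intestinal and renal cadherins Cdh17 and Cdh16 were below the filter.

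**Figure D2:**
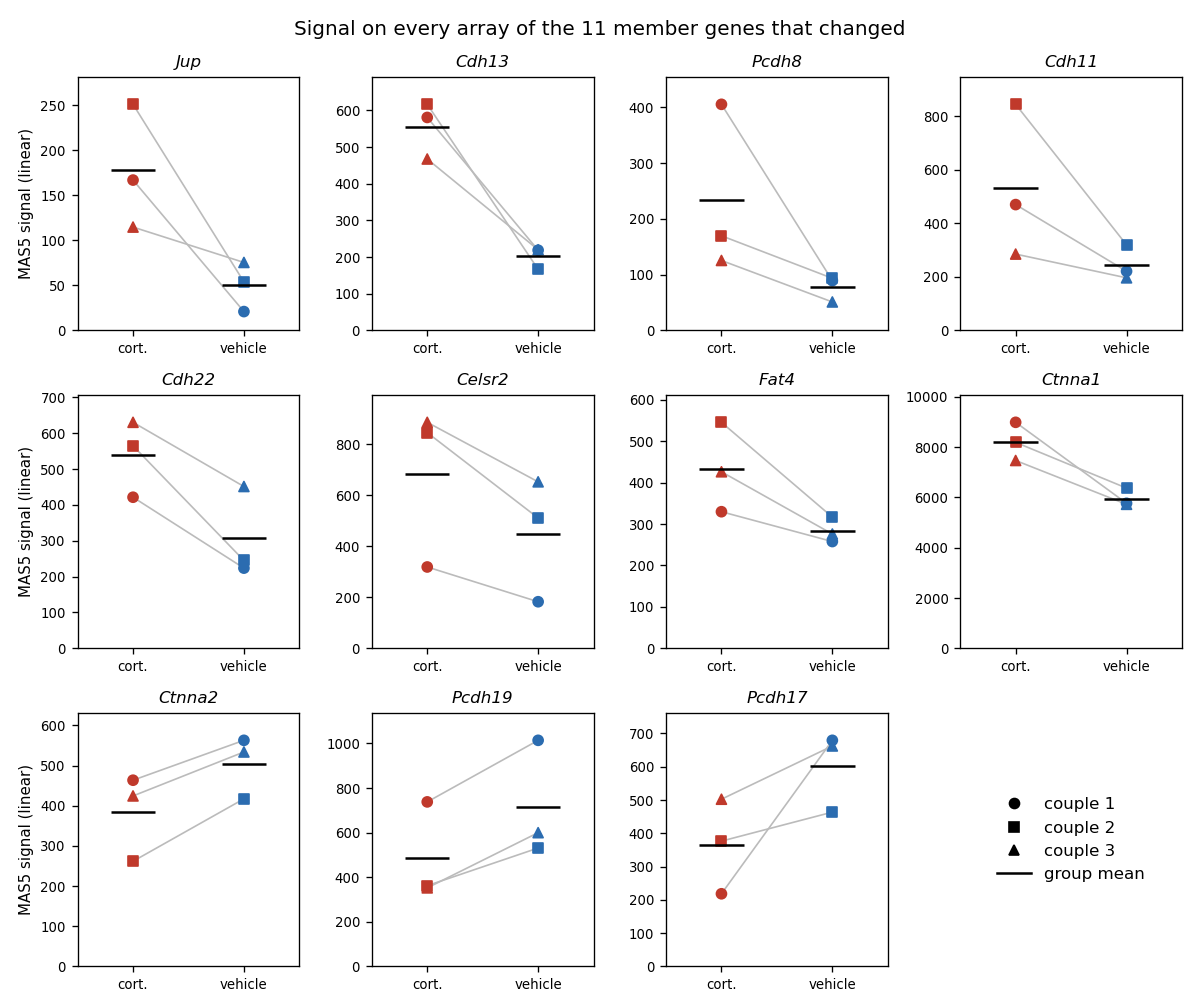
MAS5 signal, on a linear axis from 0, on every array of the 11 member genes that changed. Circles, squares and triangles are couples 1, 2 and 3, grey lines join the arrays of a couple and black bars are group means; for Cdh11, Cdh22, Celsr2, Ctnna2, Pcdh17 and Pcdh19 the corticosterone and vehicle arrays overlap.

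Non-clustered protocadherins moved both ways. Of 7 genes 6 were tested, of which Pcdh8 rose, Pcdh17 and Pcdh19 fell and 3 did not pass. Pcdh8, Pcdh10, Pcdh17, Pcdh18 and Pcdh19 belong to the delta-2 group, several of whose cytoplasmic tails are known to recruit actin regulators.

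Pcdh8, also called arcadlin and known in rat for its induction by neuronal activity, read 405, 169.6 and 125 with corticosterone and 89.2, 93.3 and 50.9 with vehicle. Every corticosterone array lay above every vehicle array, and the array of couple 1 was by far the highest. The log2 fold change was 1.18 ± 0.22 (SE; limma adjusted p = 0.0040).

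Pcdh17, of the same group, was measured by 3 probe sets, and all 3 fell, with log2 fold changes of −0.73, −0.75 and −0.86. The one that stands for the gene read 218, 376 and 502 with corticosterone and 679, 464 and 662 with vehicle (SE 0.20, limma adjusted p = 0.028). Couple 1 showed the largest gap, and the groups overlapped on this probe set. Without couple 1 its log2 fold change was −0.33 and did not pass (adjusted p = 0.14). Neither did it without the intensity trend (0.15) or the filter on low signals (0.11), and the other Pcdh17 probe sets also did not pass in the trend and filter settings (0.068 to 0.12).

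Pcdh19, an X-linked protocadherin known for its role in epilepsy in humans, read 738, 362 and 352 with corticosterone and 1014, 531 and 599.7 with vehicle. It was lower with corticosterone in each couple (−0.44, −0.52 and −0.72), while couple 1 lay highest under both treatments, so that the groups overlapped. The log2 fold change was −0.56 ± 0.10 (SE; limma adjusted p = 0.0030). Pcdh10, which missed the threshold narrowly, read 348, 258 and 383 with corticosterone and 551, 293 and 494 with vehicle (−0.38, 95% interval −0.64 to −0.12, adjusted p = 0.054). Pcdh18 (0.32, adjusted p = 0.073) and Pcdh9 (0.26, adjusted p = 0.20) did not pass either, and Pcdh20 lay below the filter.

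Clustered protocadherins are made from variable first exons that are spliced, in the alpha and gamma clusters, to exons common to the whole cluster, and the combination a neuron expresses serves it in telling its own branches from others. Of 9 named genes 3 were tested and 0 passed. In limma 0 of these 3 were also under 0.05 before adjustment, and no other tool was run. Pcdha13 read 133, 187 and 176 with corticosterone and 82.1, 133 and 194 with vehicle (log2 fold change 0.28, limma adjusted p = 0.32). Pcdhb19 (−0.17, adjusted p = 0.40) and Pcdhb22 (−0.07, adjusted p = 0.84) had intervals of −0.43 to 0.10 and −0.50 to 0.35. The other 6 (Pcdha12, Pcdhb6, Pcdhb9, Pcdhb12, Pcdhb17 and Pcdhb21) lay below the filter. Because these genes are near copies of each other, a probe set can pick up more than the gene it is named for.

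Among the large cadherins 2 of 6 tested genes rose and 0 fell. Celsr2, a flamingo-type cadherin known in mouse for ependymal cilia and axon tracts, read 319, 847 and 887 with corticosterone and 183, 511 and 653 with vehicle. Couple 1 lay lowest under both treatments, and the rise was seen within each couple (0.72, 0.70 and 0.42). Its log2 fold change was 0.61 ± 0.10 (SE; limma adjusted p = 0.0024). Celsr3 differed by 0.68, 0.75 and −0.04 within couples 1, 2 and 3 and did not pass (0.46, limma adjusted p = 0.098), but did without couple 3 (0.71, adjusted p = 0.019).

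Fat4, the receptor of Dachsous, is known in the mouse cortex for restraining progenitor growth. It read 330, 545.5 and 426 with corticosterone and 258, 317 and 276 with vehicle. The groups did not overlap, and the log2 fold change was 0.55 ± 0.12 (SE; limma adjusted p = 0.010), but 0.45 without couple 2, where it did not pass (adjusted p = 0.13). Its ligand gene Dchs1 read 527, 615 and 697 with corticosterone and 537, 550.5 and 618 with vehicle (0.10, adjusted p = 0.54). Fat1 read 5093, 6605 and 5733 with corticosterone and 4511, 6545 and 5464 with vehicle (0.09, 95% interval −0.05 to 0.22, adjusted p = 0.39). With each array centred on its median, Fat1 and Dchs1 turned to −0.02 and −0.008. Fat3 (−0.07, adjusted p = 0.85) turned to 0.12 without couple 1.

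The 6 catenins were all tested: 2 rose, 1 fell and 3 did not pass. The alpha-catenins went opposite ways. Ctnna1, alpha-E-catenin, which most tissues use, read 8987, 8190.0 and 7469 with corticosterone and 5767, 6372 and 5726 with vehicle. All corticosterone arrays lay above all vehicle arrays, and the log2 fold change was 0.46 ± 0.07 (SE; limma adjusted p = 9.6e-04). Without the intensity trend it did not pass (adjusted p = 0.056).

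Ctnna2, the alpha-catenin of neurons, read 463, 262 and 424 with corticosterone and 563, 417 and 534 with vehicle. It was lower in each couple, the groups overlapped, and the log2 fold change was −0.40 ± 0.11 (SE; limma adjusted p = 0.032). The call ended without any 1 of the couples (adjusted p from 0.055 to 0.23), without the intensity trend (0.090) and without the filter (0.075). Of 14 neuron markers tested 3 fell (Nefm, −0.80; Ina, −0.55; Tubb3, −0.52), 1 rose (Bcl11b, 0.71) and 10 did not pass, with a median of −0.17. Over all genes tested 7.77% fell and 11.7% rose. The summed signal of the 20 markers measured was 13705 to 16871 with corticosterone and 16127 to 17799 with vehicle, so that the groups overlapped. Of these markers 0 lay at or under background on all 6 arrays. Map2 and Gap43, which did not pass, made up most of the sum. The part of neurons in the fall of Ctnna2 was not tested.

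Plakoglobin can take the place of beta-catenin in adherens junctions and is also a component of desmosomes. Jup read 167, 251 and 115 with corticosterone and 20.8, 53.8 and 75.4 with vehicle. The groups did not overlap, and the vehicle array of couple 1 lay under the background signal. The log2 fold change was 1.40 ± 0.27 (SE; limma adjusted p = 0.0046), with differences of 1.98, 1.76 and 0.46 within couples 1, 2 and 3. Its mean vehicle signal of 50.01 ± 27.5 (SD) lay under the filter limit of 63.6, so it was tested only through its corticosterone arrays, which averaged 178 ± 68.8 (SD). Jup did not pass without couple 2 (adjusted p = 0.081) or without the intensity trend (0.057).

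Ctnnb1, beta-catenin, the junction protein that is also the nuclear effector of Wnt signals, read 12782, 18149 and 21414 with corticosterone and 13919, 19374 and 20823 with vehicle. Couple 1 lay lowest under both treatments, and the log2 fold change was −0.06 (95% interval −0.18 to 0.06, limma adjusted p = 0.53). Its other tested probe sets gave −0.04 and 0.02, with signs that turned in some settings. The p120-type catenins Ctnnd1 and Ctnnd2 did not pass (0.19 and 0.21, adjusted p = 0.24 and 0.066). Ctnnd2, of neural cells, read 2602, 2727 and 2571 with corticosterone and 2099, 2536 and 2217 with vehicle, without overlap.

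**Figure D3:**
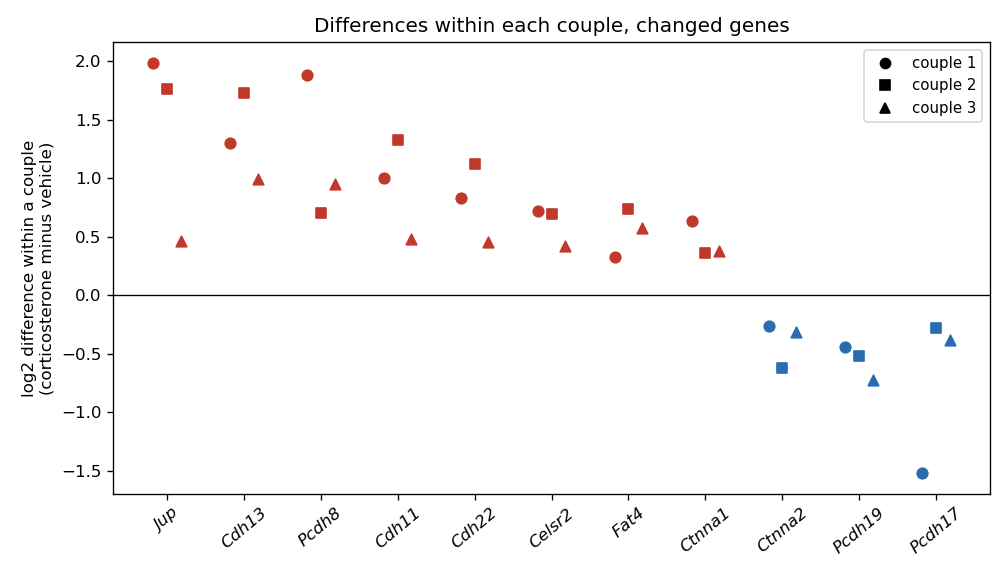
Difference in log2(signal + 28.6), corticosterone minus vehicle, within each couple for the 11 member genes that changed. Each gene has 1 sign in all 3 couples, but sizes differ, as for Jup (1.98 in couple 1 and 0.46 in couple 3) and Pcdh17 (−1.52 and −0.38).

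Several probe sets were tested for 7 member genes. The rule for choosing 1 of them used their mean signals and not the treatment difference. All probe sets read the same arrays, so the others check the choice of probe set and not the samples. The 3 of Cdh13 and the 3 of Pcdh17 all passed in 1 direction each. None of those of Ctnnb1, Cdh2, Pcdh9 and Dchs1 passed, and Cdh22 was the gene on which they differed. Counting a gene as changed where any of its probe sets passed also gave 8 higher and 3 lower.

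**Figure D4:**
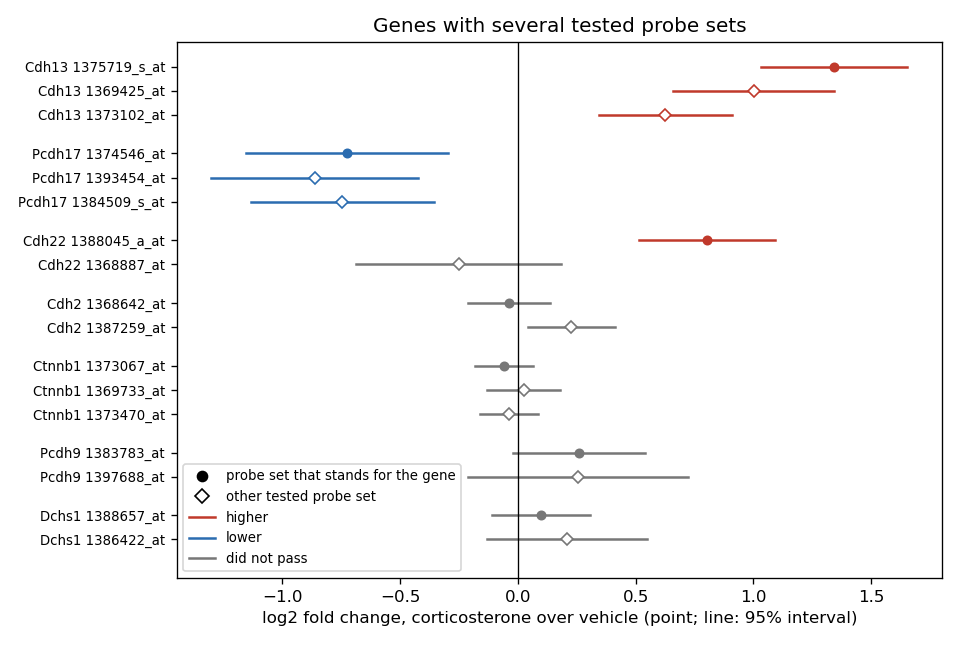
Log2 fold change, corticosterone over vehicle, with 95% intervals for each tested probe set of the 7 member genes that had several. Filled circles are the probe sets that stand for the gene, and open diamonds are the others. Those of Cdh13 lie at 1.34 (circle), 1.00 and 0.63 and those of Pcdh17 at −0.73 (circle), −0.86 and −0.75. Each of these genes has all its points on 1 side of 0, while the 2 of Cdh22 lie at 0.80 (circle) and −0.25.

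Promoter sequences were looked at for the changed members, since glucocorticoid receptor sites and the boxes of cadherin repressors are short motifs. The table of RefSeq promoters (rat build GRCr8, 250 bases before and 50 after each gene's start) held 7 of the 11: Celsr2, Ctnna2, Jup, Pcdh8, Fat4, Cdh22 and Pcdh17. Not in it were Cdh11, Cdh13, Ctnna1 and Pcdh19. On either strand, the hexamer AGAACA of the receptor's binding site was in 0 of the 7 and in 20.7% of all 33469 promoters, and the full palindrome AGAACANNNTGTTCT was in 0 of the 7 and in 0.0149% of all. The E-box CACCTG, which the Snail and Zeb repressors of Cdh1 can bind, was in 3 of the 7 and in 18.8% of all. Over the 33 member promoters in the table, changed or not, CACCTG and AGAACA were in 6 each, near their shares of all promoters, and TATAAA was in 2. Among the 7, CACCTG lay in Celsr2 and Jup, which rose, and in Ctnna2, which fell. TATAAA was in 1 of the 7, Pcdh8, and in 14.2% of all. No motif overlapped another. The 4 promoters with a match are shown 5′ to 3′ along the gene, with the matched bases in capitals (CAGGTG is CACCTG read on the other strand). The matches begin 115, 237, 101 and 30 bases before the start of Celsr2, Ctnna2, Jup and Pcdh8. A match is a description of the letters and not evidence of binding. With 7 promoters and so short a stretch, the absence of AGAACA is no evidence that these genes lack receptor sites.
Celsr2, chr2:198741333-198741632, minus strand: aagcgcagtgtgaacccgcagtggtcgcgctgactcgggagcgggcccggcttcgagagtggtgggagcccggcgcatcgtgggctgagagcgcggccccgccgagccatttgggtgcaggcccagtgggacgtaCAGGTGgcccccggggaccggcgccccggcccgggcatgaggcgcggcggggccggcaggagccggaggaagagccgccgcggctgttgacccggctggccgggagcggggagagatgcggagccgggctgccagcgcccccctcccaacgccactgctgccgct
Ctnna2, chr4:112001302-112001601, minus strand: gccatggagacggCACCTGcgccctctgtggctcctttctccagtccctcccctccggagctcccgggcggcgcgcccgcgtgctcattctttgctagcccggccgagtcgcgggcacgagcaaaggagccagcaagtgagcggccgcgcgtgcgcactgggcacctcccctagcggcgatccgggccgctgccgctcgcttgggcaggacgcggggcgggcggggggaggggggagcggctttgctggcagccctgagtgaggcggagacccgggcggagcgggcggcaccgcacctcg
Jup, chr10:85827380-85827679, minus strand: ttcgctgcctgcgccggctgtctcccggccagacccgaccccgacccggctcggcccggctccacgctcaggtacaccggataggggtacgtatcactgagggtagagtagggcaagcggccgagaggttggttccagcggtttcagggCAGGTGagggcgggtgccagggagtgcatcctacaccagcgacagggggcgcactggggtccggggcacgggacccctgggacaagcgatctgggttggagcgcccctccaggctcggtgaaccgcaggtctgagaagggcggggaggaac
Pcdh8, chr15:61612041-61612340, minus strand: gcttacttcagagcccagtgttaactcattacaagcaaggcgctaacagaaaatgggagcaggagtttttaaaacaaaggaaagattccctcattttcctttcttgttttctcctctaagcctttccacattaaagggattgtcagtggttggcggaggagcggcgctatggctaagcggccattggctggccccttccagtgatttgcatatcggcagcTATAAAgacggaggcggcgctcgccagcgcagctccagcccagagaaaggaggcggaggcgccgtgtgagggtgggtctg

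Genes that work with cadherins were followed in lists of their own, each with the same filter and test. Over all genes tested, 19.5% passed, 11.7% upwards and 7.77% downwards, and each list's count is to be read against these shares. Of 28 partners of the adherens junction 9 rose, 0 fell and 19 did not pass (median 0.18, against −0.002 over all genes). Vinculin (Vcl), which alpha-catenin recruits under tension, read 1568, 2504 and 1767 with corticosterone and 722, 1043 and 1014 with vehicle, a log2 fold change of 1.04 (limma adjusted p = 4.1e-05). The receptor phosphatase Ptprm (0.77), the scaffold Iqgap1 (0.68) and the LIM protein Limd1 (0.63) rose too. Of 12 desmosome genes measured 10 lay below the filter, Pkp1 and Pkp4 were tested, and 0 passed (0 also at an unadjusted p under 0.05). Of the repressors of cadherin genes 5 of 8 were tested and 0 passed, among them Zeb1 (−0.21, adjusted p = 0.12) and Zeb2 (−0.18, adjusted p = 0.35), with 1 at an unadjusted p under 0.05, and Snai1 lay below the filter.

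Among proteases that cut cadherins 2 of 12 passed, Mmp14 (1.10) and the calpain Capn2 (0.45), both upwards. This count and those of the next 2 lists lie near the shares over all genes and are no result about the lists. Of 23 genes of the beta-catenin destruction complex and its nuclear partners 3 rose and 2 fell (median −0.04). Axin2, a Wnt target and brake, rose by 0.46 and the co-repressor Tle1 by 0.53, while Tcf7l1 (−0.45) and Csnk1e (−0.27) fell. Of 20 genes of planar polarity and the Fat and Hippo pathway 3 rose and 0 fell (median 0.03): the co-activator Wwtr1 (0.64), the kinase Stk3 (0.45) and Tead1 (0.29). Of 17 regulators and partners of protocadherins 0 rose and 3 fell (median −0.06), a total that is also near the share over all genes and no result about the list. Cyfip2 and Wasf1, of the WAVE complex that the tails of Pcdh10, Pcdh17 and Pcdh19 can bind, fell (−0.57 and −0.40), as did Smchd1 (−0.29), a silencer of clustered protocadherins known from mouse.

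Markers of other cell types that express these cadherins were read the same way. Endothelial markers were at the edge of detection: of 18 measured 2 were tested, 0 passed (0 at an unadjusted p under 0.05), and Vwf, Sox17 and Ecscr lay at or under background on all 6 arrays. Their summed signal was 586 to 659 with corticosterone and 446 to 636 with vehicle. Of 11 astrocyte markers 9 rose and 0 fell (median 0.96), with a summed signal of 41236 to 51342 with corticosterone and 21526 to 30501 with vehicle, and only Gjb6 of the 15 measured lay at or under background throughout. The largest of these changes were those of Sparc (2.42), Clu (2.06), S100b (1.80) and Aldoc (1.60). Slc1a3 and Gja1 made up most of the summed signal. Gfap (0.58, limma adjusted p = 0.13) and Fgfr3 (−0.14, adjusted p = 0.40) did not pass, and Aqp4, Aldh1l1 and Slc1a2 lay below the filter. Of 6 neural crest, Schwann and ensheathing cell markers 3 rose (S100b again, Mitf, 0.86, and Pmp22, 0.48) and 1 fell (Ets1, −0.50), with a median of 0.29. Of 8 oligodendrocyte lineage markers 3 fell (Pdgfra, −1.64; C1ql1, −1.57; Cnp, −0.30) and 1 rose (Cldn11, 1.00), with a median of −0.26. Cldn11 passed the filter only through its corticosterone arrays, with a mean signal of 150.1 there and 56.9 on the vehicle arrays. Of 15 progenitor markers 3 rose (Emx2, 0.54; Slc1a3, 0.49, also an astrocyte marker; Nes, 0.26) and 0 fell (median 0.08). The microglial and the choroid plexus or epithelial lists had 1 gene higher each, Cd14 (1.09) and Aqp1 (0.63), of 3 and 4 tested. Of 6 reference genes tested 0 passed (3 at an unadjusted p under 0.05), with log2 fold changes of −0.17 to 0.17. Which cells carried the changes of Jup, Cdh13, Cdh22, Pcdh8 and Celsr2 was not tested.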

How the data were processed

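Gene expression was measured on 6 arrays of rat cortical progenitor cells. The deposited values are MAS5 signal intensity per probe set, made by the authors, per the submitters' processing notes; no settings or version are stated there. With 2% trimmed at each end, each array's mean was 500.2, so arrays had been scaled to one mean. Of 31099 probe sets, 57 controls were left out. The platform annotation gave 1 symbol to 20826, several to 436 and none to 9780. Of the 63 member probe sets, 61 had an identifier in the GRCr8 gene table and 0 of these symbols differed; Pcdha12 and Pcdha13 keep the annotation's names.

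Signals were taken as log2(signal + 28.6), the pseudocount being the 25th percentile of all values, so fold changes understate those of low genes. The 40% with the lowest mean (a signal of 63.6) were left out, which left 18625. Background was set at the signal that 95% of values of 27 bacterial control probe sets do not exceed. limma 3.58.1 in R 4.3.3 fitted treatment and couple with an intensity trend; tests are two-sided, adjusted by Benjamini-Hochberg over all 18625, and the code was tested on simulated data. The series text says that the samples form couples, and deviations from group means correlated by 0.57, 0.52 and 0.35 within couples. Nothing says that couples came from separate cultures, so p-values measure the spread between these samples, which may be technical.

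Named genes were every member past the threshold and a fixed list of classical cadherins, catenins, Fat, Dachsous and Celsr genes and clustered protocadherins, and of each other list up to 4 genes past the threshold with the largest changes. Other genes of those lists, such as Lum, Col3a1 and Igfbp2, genes at background or below the filter, and members or repressors that did not pass and are outside the fixed list, were named after their values were seen. Members, lists and tests were chosen with earlier results of these data known. No batch or scan date is given, and the number of arrays limits precision.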

Additional observations from a re-analysis of the deposited data

How the results depend on the processing

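Of the 41 tested member probe sets, all kept their direction and side of the threshold with a pseudocount 4 times smaller or larger. The member genes counted 8 higher and 3 lower. Higher genes were 2 without the replicate block, 8 without the filter, 6 with the lowest 60% left out, 9 with quantile normalization, 8 with median centring, 6 without the intensity trend and 6 to 9 without 1 of the replicates. Lower genes were 0, 1, 3, 5, 5, 1 and 1 to 2 in the same order, and without the replicate block 0 lower genes stood at an adjusted p under 0.05 in limma and 2 at an unadjusted one. Of the 11 changed genes 9 also passed without couple 1, 8 without couple 2 and 10 without couple 3. Member probe sets higher were 3 without the block and 7 to 11 without a replicate, and lower ones 0 without the block, 1 without the filter, 7 with quantile normalization or median centring, 1 without the trend and 2 to 4 without a replicate. All probe sets past the threshold were 2953, and 417 without the replicate block, 1862 without the filter, 1262 without the trend and 1192 to 2807 without a replicate. Median centring moved the median log2 fold change to −0.11 and left all 11 member genes past the threshold, with Cdh23 and Pcdh10 passing as lower.

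Directions of genes that had not passed turned in a few settings. With median centring these were the main probe set of Dchs1 (−0.0083), Fat1 (−0.021) and the dimmest tested of Ctnnb1 (−0.082), and with quantile normalization the middle one of Ctnnb1 (0.0045). Without replicate 1 these were Fat3 (−0.21 to 0.12 over the couples left out), Pcdhb22 (−0.22 to 0.041 over the couples left out) and the main Cdh2 probe set (−0.11 to 0.075 over the couples left out). The others were the middle Ctnnb1 probe set without replicate 2 (−0.082 to 0.0076 over the couples left out), and Pcdh15 (−0.61 to 0.15 over the couples left out) and the dimmest Ctnnb1 probe set without replicate 3 (−0.0008 to 0.072 over the couples left out).

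Genes past the threshold in the other lists also moved. Without the replicate block they were 1 against 9 junction partners, 0 against 5 in the beta-catenin list, 0 against 3 polarity genes, 0 against 3 protocadherin regulators, 1 against 2 proteases, 2 against 6 meningeal, 2 against 4 neural crest, 4 against 9 astrocyte, 0 against 3 progenitor, 0 against 4 neuron, 0 against 4 oligodendrocyte, 0 against 1 microglial and 0 against 1 choroid plexus markers. Without the trend they were 4 junction partners, 2 in the beta-catenin list, 0 polarity genes, 1 regulator, 1 protease, 3 meningeal, 0 neuron, 2 oligodendrocyte and 0 choroid markers. Without the filter they were 5, 2, 0, 2 and 0 for the junction, beta-catenin, neuron, oligodendrocyte and choroid lists. With the lowest 60% left out, 3 meningeal, 2 neuron, 2 oligodendrocyte, 0 microglial and 0 choroid markers passed. Median centring gave 5 regulators, 1 repressor, 2 choroid markers and 2 reference genes, and quantile normalization 1 reference gene. Leaving out 1 replicate gave 4 to 10 junction partners, 1 to 4 in the beta-catenin list, 1 to 3 polarity genes, 1 to 4 regulators, 0 to 1 repressors, 1 to 4 neuron and 2 to 4 oligodendrocyte markers, and 0 to 1 each of microglial markers, choroid markers and reference genes. The causes of these moves were not tested, beyond the smaller number of samples when a couple is left out.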

Other observations

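Probe sets annotated to many genes of a protocadherin cluster at once were not among the members, and no gene is named from them. Of the 2 that list 15 alpha-cluster symbols each, one read 1058, 1199 and 1383 with corticosterone and 979, 947 and 1228 with vehicle, a log2 fold change of 0.20 (95% interval 0.02 to 0.38; limma adjusted p = 0.12). The other read 684, 818 and 907 with corticosterone and 759, 637 and 869 with vehicle (0.09, adjusted p = 0.62). Of the 2 that list gamma-cluster symbols, the one with 13 read 6802, 7316 and 8126 with corticosterone and 5478, 6798 and 7686 with vehicle (0.17, adjusted p = 0.10). The one with 14 read 942, 951 and 1211 with corticosterone and 827, 830.4 and 887 with vehicle (0.27, adjusted p = 0.059), with no overlap between the groups. All 4 differences were positive, and 0 of the 4 passed (3 were at an unadjusted limma p under 0.05).

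Desmosomal genes below the filter held a pair whose corticosterone arrays all lay above the vehicle arrays, singled out after their values were seen. Evpl, which encodes envoplakin, read 37.6, 38.7 and 34.0 with corticosterone and 7.41, 7.14 and 10.8 with vehicle. Pkp2, a plakophilin that binds plakoglobin, read 13.2, 68.3 and 23.1 with corticosterone and 4.08, 3.76 and 3.92 with vehicle. Both were at or under the background signal of 22.8 on all vehicle arrays and were not tested. Pkp2 was under it on the corticosterone array of couple 1 too, and close to it in couple 3. Of all genes tested, 14.8% had all corticosterone arrays above all vehicle arrays, and that share was not counted among genes below the filter. The pair is therefore no result about desmosome genes.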
